A study of Mus musculus with 9 samples.

Results

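The 10 genes described here encode the core enzymes that oxidise fatty acids in the mitochondrial matrix: the acyl-CoA dehydrogenases Acads, Acadm, Acadl and Acadvl, the trifunctional protein subunits Hadha and Hadhb, the thiolase Acaa2, the electron transfer flavoprotein subunits Etfa and Etfb, and the ETF-ubiquinone oxidoreductase Etfdh. They were chosen as a list of names, with earlier results of these data known, and were matched by Ensembl identifier. They make up 10 of the 32285 identifiers in the count tables, and all 10 passed the filter on low counts. RNA was measured in 9 libraries of primary cells of the stromal vascular fraction (SVF), the non-adipocyte cells that remain when fat tissue is digested, from wild-type (WT) mice. The study's methods describe SVF preparation from subcutaneous white fat of neonatal animals. The 3 groups, of 3 libraries each, were cells left undifferentiated, cells given a differentiation regimen of 6 days with vehicle (dimethyl sulfoxide, DMSO), and cells given that regimen with 25 µM mizoribine (MIZ), an inhibitor of inosine monophosphate dehydrogenase in purine synthesis. By those methods, both differentiated groups shared an induction medium with insulin, dexamethasone and 3-isobutyl-1-methylxanthine and then a maintenance medium with insulin, troglitazone, rosiglitazone and triiodothyronine, so agonists of PPARγ were present with vehicle and with MIZ alike. The design text calls the 3 libraries of a group biological replicates, and the methods describe plating the cells of individual animals separately. The labels do not tie a library to an animal.

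Mitochondrial beta-oxidation shortens an activated fatty acid by a pair of carbons in each turn of a cycle. An acyl-CoA dehydrogenase introduces a double bond, a hydratase adds water, a 3-hydroxyacyl-CoA dehydrogenase oxidises the alcohol, and a thiolase releases acetyl-CoA. The electrons taken up by the dehydrogenases pass to the electron transfer flavoprotein and, through its oxidoreductase, to ubiquinone in the respiratory chain. White adipocytes mainly store and release fatty acids, whereas brown and beige adipocytes burn them at a high rate, and differentiation into either type is accompanied by growth of the mitochondrial compartment.

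Total counts were 28760721 to 55288455 per library, and 17173 genes were tested. Vehicle replicate 1 stood somewhat apart from the other vehicle libraries: it was the shallowest library and had the highest share of counts from mitochondrially encoded genes, 5.0% against 4.23% and 3.82%. That share was 0.837% to 0.891% in undifferentiated cells and 0.686% to 0.836% with MIZ. The summed level of 6 adipocyte markers was 70.9 to 71.6 CPM (counts scaled to library size) in undifferentiated cells, 14257 to 15028 CPM with vehicle and 993 to 1237 CPM with MIZ, and all 6 rose with vehicle and were lower with MIZ. The 4 brown adipocyte markers, Ucp1 and Cidea among them, summed to 188 to 202 CPM with vehicle and to 0.190 to 0.443 CPM with MIZ. The 7 preadipocyte and fibroblast markers summed to 14676 to 15938, 3347 to 4202 and 6241 to 8062 CPM in undifferentiated, vehicle and MIZ libraries, mostly from Col1a1; against vehicle, 5 were higher with MIZ, 1 (Cd34) was lower and 1 was not called, and against undifferentiated cells 2 (Pdgfrb and Thy1) were higher with MIZ and 4 were lower. The 6 leukocyte markers summed to 3431 to 3539, 399 to 744 and 846 to 1171 CPM, mostly from Lyz2 and Adgre1 in the MIZ libraries; of the 5 tested, those 2 were higher with MIZ than with vehicle and the other 3 were not called, with means of 26.2 against 29.0 CPM for Ptprc, 55.3 against 69.2 CPM for Csf1r and 38.2 against 44.3 CPM for Cd68. The 6 muscle markers summed to 35.6 to 44.8, 14.4 to 23.8 and 173 to 259 CPM, with Ckm and Myog too low to test. The 5 endothelial markers summed to 27.2 to 29.6, 5.36 to 7.28 and 2.57 to 4.03 CPM, the 4 Schwann cell markers to 16.6 to 20.8, 13.0 to 14.7 and 24.5 to 37.6 CPM, and the 4 epithelial markers to at most 0.318 CPM in any library, while the T cell marker Cd3e had 0 counts. The part of these markers in the results below was not tested, and in bulk RNA fewer cells of a type and less RNA per cell cannot be told apart.

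All 10 genes rose strongly when SVF cells differentiated with vehicle, and all 10 were several fold lower when MIZ was present, while remaining above the undifferentiated level. Their summed level was 452, 437 and 438 CPM in the undifferentiated libraries, 5919, 5377 and 5077 CPM with vehicle and 764, 773 and 808 CPM with MIZ, with group means of 442 ± 8.18, 5458 ± 427 and 781 ± 23.1 CPM (SD, n = 3 each). CPM, the counts scaled to a common library size, were computed after TMM scaling. The plot of levels by library shows the 3 groups as separate bands for every gene.

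**Figure D1:**
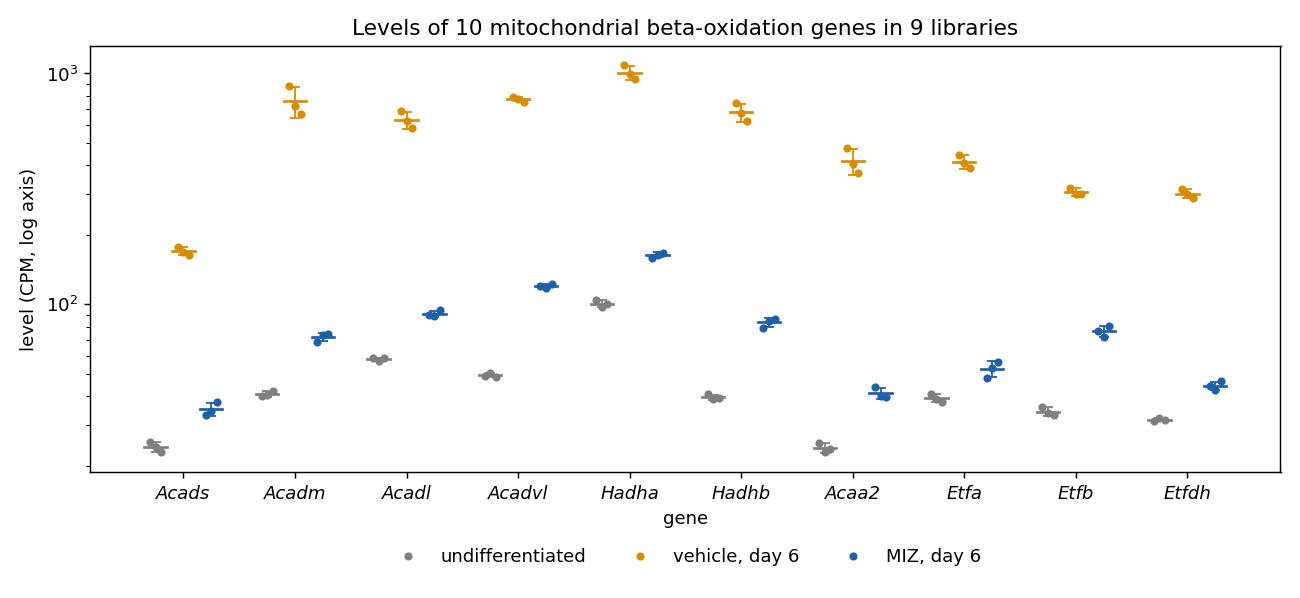
Level of each of the 10 genes (CPM, log axis) in undifferentiated, vehicle and MIZ libraries; points are libraries, and horizontal lines and bars give the mean and SD of 3 libraries. In all 10 genes the vehicle libraries lie above the MIZ libraries, which lie above the undifferentiated libraries, with no overlap.

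With vehicle, 10 of 10 members were higher than in undifferentiated cells in edgeR's quasi-likelihood test with Benjamini-Hochberg adjustment over all tested genes (adjusted p under 0.05), where 36.2% of all tested genes were called higher. All 10 rose by more than 2-fold, a size reached by 17.2% of tested genes, and in all 10 the groups did not overlap, as in 37.3%. The fold changes ran from 7.04-fold for Acads to 18.5-fold for Acadm, with a median log2 fold change of 3.42 beside -0.08 over all tested genes. With MIZ, 10 of 10 were lower than with vehicle, against 35.1% of tested genes called lower. All 10 were lower by over 2-fold, against 16.8%, and without overlap, against 36.0%. The MIZ level lay between 9.55% of vehicle for Acadm and 25% for Etfb, with a median log2 fold change of -2.78 beside 0.02 over all tested genes. All 10 members were highest in vehicle replicate 1. Without that library all 10 stayed called in both comparisons, with log2 fold changes of 2.79 to 4.09 for vehicle against undifferentiated and -3.28 to -1.99 for MIZ against vehicle.

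**Figure D2:**
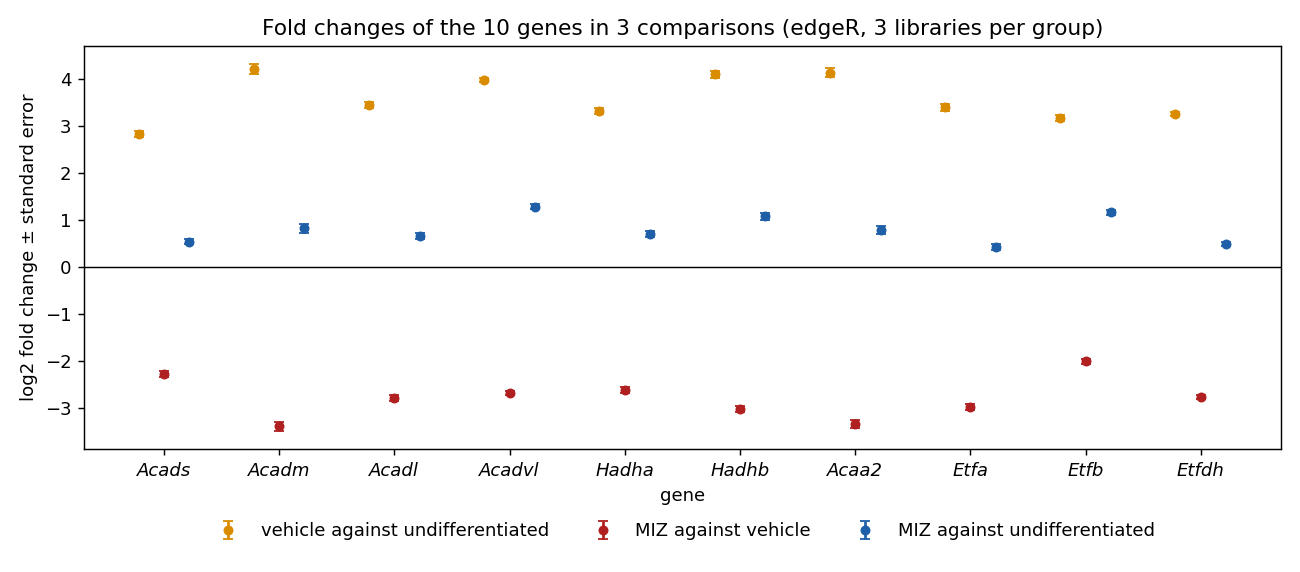
Log2 fold change of each gene for vehicle against undifferentiated, MIZ against vehicle, and MIZ against undifferentiated; points are edgeR estimates, bars are standard errors, 3 libraries per group. The rise with vehicle spans 2.82 (Acads) to 4.21 (Acadm), the difference with MIZ spans -3.39 (Acadm) to -2.0 (Etfb), and the MIZ level stays 0.42 (Etfa) to 1.28 (Acadvl) above undifferentiated.

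The 4 acyl-CoA dehydrogenases carry out the first step of each turn and are named for the chain length they prefer, although their ranges overlap. Acadvl (ENSMUSG00000018574, chr11:70010183-70015411, minus strand of GRCm38), the very-long-chain enzyme bound to the inner membrane, measured 49.2, 50.5 and 48.6 CPM in the undifferentiated libraries, 789.6, 778 and 756 CPM with vehicle and 120.1, 118 and 123 CPM with MIZ. It had the smallest standard error of the 10 genes in all 3 comparisons, with a rise of 15.7-fold with vehicle (log2 fold change 3.97 ± 0.05, adjusted p = 1.24e-12) and a MIZ level of 15.5% of vehicle (log2 fold change -2.69 ± 0.04, adjusted p = 1.47e-11). Acadl (ENSMUSG00000026003, chr1:66830839-66863277, minus strand), the long-chain enzyme, measured 58.4, 56.9 and 58.4 CPM in the undifferentiated libraries, 685, 623 and 581 CPM with vehicle and 89.7, 89.5 and 94.5 CPM with MIZ. Its 3 undifferentiated libraries differed by less than 2 CPM, and it rose 10.9-fold with vehicle (log2 fold change 3.44 ± 0.06, adjusted p = 7.01e-12) and was at 14.5% of vehicle with MIZ (log2 fold change -2.79 ± 0.06, adjusted p = 4.44e-11).

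Acadm (ENSMUSG00000062908, chr3:153922357-153944632, minus strand), the medium-chain enzyme whose deficiency is the best known inherited disorder of this pathway, measured 40.0, 40.7 and 42.4 CPM in the undifferentiated libraries, 884, 722 and 666 CPM with vehicle and 68.9, 73.4 and 74.7 CPM with MIZ. It had the greatest fold rise of the 10 with vehicle (log2 fold change 4.21 ± 0.10, adjusted p = 2.93e-11) and the greatest fold difference with MIZ (log2 fold change -3.39 ± 0.10, adjusted p = 1.85e-10), and also the widest spread among the vehicle libraries, 757 ± 113 CPM (SD, n = 3). Acads (ENSMUSG00000029545, chr5:115110299-115119346, minus strand), the short-chain enzyme, measured 25.4, 24.2 and 23.0 CPM in the undifferentiated libraries, 178, 169 and 164 CPM with vehicle and 33.1, 34.6 and 37.7 CPM with MIZ. It had the smallest rise of the 10, at 7.04-fold (log2 fold change 2.82 ± 0.06, adjusted p = 1.82e-11), and its MIZ level was 20.6% of vehicle (log2 fold change -2.28 ± 0.06, adjusted p = 1.30e-10).

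The balance among the dehydrogenases differed between the groups. Acads held 14.0 ± 0.689% of the counts of the 4 genes before differentiation, 7.31 ± 0.285% in the vehicle group and 11 ± 0.407% in the MIZ group (SD, n = 3 each). The Acadm share was 23.8 ± 0.743%, 32.4 ± 2.17% and 22.7 ± 0.607%, so that the MIZ mean was near the undifferentiated one. The Acadvl share instead went from 28.6 ± 0.587% to 33.3 ± 1.95% and stood at 37.7 ± 0.690% with MIZ, its highest, while the Acadl share went from 33.6 ± 0.467% to 27.0 ± 0.190% and was 28.6 ± 0.187% with MIZ. These shares are of counts, not of molecules, since the transcripts differ in length.

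Hadha and Hadhb encode the alpha and beta subunits of the mitochondrial trifunctional protein, which carries out the last 3 steps of the cycle for long chains. The genes lie head to head on chromosome 5, Hadha (ENSMUSG00000025745) at chr5:30118304-30155162, minus strand and Hadhb (ENSMUSG00000059447) at chr5:30155248-30184593, plus strand, so that 85 bases separate their starts in the GENCODE annotation. That stretch is shown because a single short segment adjoins both transcripts of one protein complex. It is printed on the plus strand at chr5:30155163-30155247 of GRCm38.p6 (RefSeq), with GC boxes (GGGCGG, either strand) in capitals.
Hadha-Hadhb: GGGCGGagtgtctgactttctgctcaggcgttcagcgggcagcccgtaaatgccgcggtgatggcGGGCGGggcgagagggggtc
The segment holds 2 GC boxes in the same orientation, 1 at the Hadha end and 1 nearer the Hadhb start. RefSeq places the start of Hadha further inside the gene, so that the stretch adjoins both starts only in the GENCODE annotation.

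Hadha measured 104, 97.6 and 100.2 CPM in the undifferentiated libraries, 1085, 997 and 942 CPM with vehicle and 159.6, 164 and 168 CPM with MIZ, the most counts of the 10 genes in every library. It rose 10-fold with vehicle (log2 fold change 3.32 ± 0.06, adjusted p = 7.01e-12) and was at 16.3% of vehicle with MIZ (log2 fold change -2.62 ± 0.06, adjusted p = 5.03e-11). Hadhb measured 40.8, 38.9 and 39.3 CPM in the undifferentiated libraries, 741, 673 and 620.2 CPM with vehicle and 79.1, 85.1 and 86.4 CPM with MIZ. It rose further than its partner, 17.1-fold (log2 fold change 4.10 ± 0.07, adjusted p = 6.14e-12), and was at 12.3% of vehicle with MIZ (log2 fold change -3.02 ± 0.07, adjusted p = 5.03e-11).

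The partners therefore did not keep a fixed ratio of counts. Within libraries, Hadha counts were 2.56, 2.51 and 2.55 times the Hadhb counts in undifferentiated cells, 1.46, 1.48 and 1.52 times with vehicle and 2.02, 1.93 and 1.94 times with MIZ. The 3 groups did not overlap, and the mean log2 ratio differed by -0.77 for vehicle against undifferentiated and by 0.40 for MIZ against vehicle (exact permutation p = 0.1 for each, two-sided, the smallest that 3 against 3 libraries allow). Ratios within a library do not depend on the scaling between libraries.

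Acaa2 (ENSMUSG00000036880, on chromosome 18) encodes a mitochondrial 3-ketoacyl-CoA thiolase, which releases acetyl-CoA at the end of a turn. It measured 25.2, 22.9 and 23.7 CPM in the undifferentiated libraries, 477, 405 and 370.2 CPM with vehicle and 43.9, 40.2 and 39.8 CPM with MIZ. It rose 17.4-fold with vehicle (log2 fold change 4.12 ± 0.10, adjusted p = 2.35e-11) and was at 9.90% of vehicle with MIZ (log2 fold change -3.34 ± 0.09, adjusted p = 1.50e-10), second to Acadm in both comparisons. Its counts were 0.618, 0.588 and 0.602 times those of Hadhb, which carries the thiolase site of the trifunctional protein, in undifferentiated cells. The same ratio was 0.643, 0.602 and 0.597 with vehicle, overlapping the undifferentiated libraries (difference of mean log2 ratios 0.03, exact permutation p = 0.6), and 0.555, 0.473 and 0.460 with MIZ, below both other groups.

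Etfa and Etfb encode the subunits of the electron transfer flavoprotein, a heterodimer with 1 copy of each, which accepts electrons from all the acyl-CoA dehydrogenases. Etfa (ENSMUSG00000032314, chr9:55454508-55512243, minus strand) measured 40.9, 39.1 and 38.0 CPM in the undifferentiated libraries, 445, 408 and 389 CPM with vehicle and 48.1, 53.3 and 56.3 CPM with MIZ. It rose 10.5-fold with vehicle (log2 fold change 3.40 ± 0.07, adjusted p = 1.45e-11) and was at 12.7% of vehicle with MIZ (log2 fold change -2.98 ± 0.07, adjusted p = 6.83e-11). Etfb (ENSMUSG00000004610, chr7:43444083-43457800, plus strand) measured 36.0, 33.7 and 33.2 CPM in the undifferentiated libraries, 320.2, 301 and 301 CPM with vehicle and 77.0, 72.4 and 80.7 CPM with MIZ. It rose 8.96-fold (log2 fold change 3.16 ± 0.06, adjusted p = 6.47e-12) but kept the highest share of its vehicle level of any of the 10 genes with MIZ, 25% (log2 fold change -2.0 ± 0.05, adjusted p = 1.36e-10).

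This pair was the one whose ratio with MIZ lay outside the range of both other groups by the widest margin among the 8 pairs compared. Etfa counts were 1.14, 1.16 and 1.14 times Etfb counts in undifferentiated cells and 1.39, 1.36 and 1.29 times with vehicle. With MIZ they were 0.625, 0.737 and 0.698 times, so that Etfb counts exceeded Etfa counts in all 3 MIZ libraries and in none of the other 6. The mean log2 ratio with MIZ was -0.97 relative to vehicle and -0.74 relative to undifferentiated (exact permutation p = 0.1 each).

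Etfdh (ENSMUSG00000027809, chr3:79603788-79629500, minus strand) encodes the iron-sulfur flavoprotein that passes the electrons on to ubiquinone. It measured 31.3, 32.1 and 31.7 CPM in the undifferentiated libraries, 315, 302 and 288 CPM with vehicle and 44.1, 42.5 and 46.5 CPM with MIZ. It rose 9.52-fold (log2 fold change 3.25 ± 0.05, adjusted p = 3.75e-12) and was at 14.7% of vehicle with MIZ (log2 fold change -2.77 ± 0.05, adjusted p = 2.24e-11). Etfdh counts were 0.765, 0.822 and 0.835 times those of Etfa in undifferentiated cells, 0.708, 0.740 and 0.742 with vehicle and 0.917, 0.798 and 0.825 with MIZ, and the MIZ and undifferentiated libraries overlapped (difference of mean log2 ratios 0.07, exact permutation p = 0.5).

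**Figure D3:**
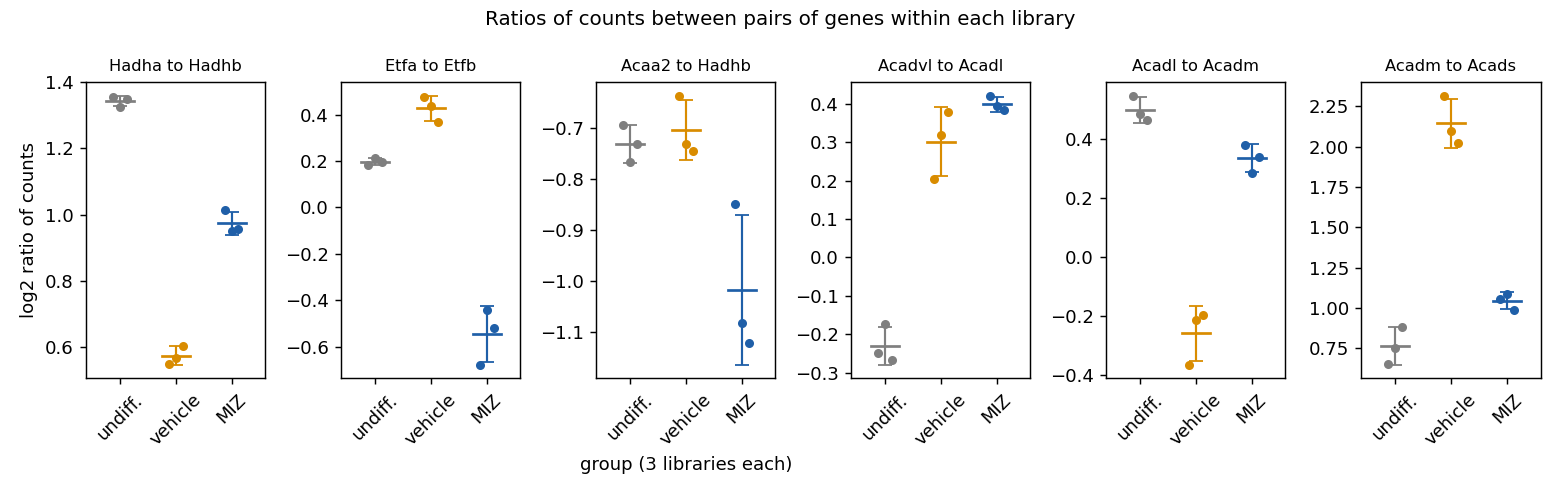
Log2 ratio of counts for 6 pairs of genes within each library, by group; points are libraries, lines and bars the mean and SD of 3 libraries, and each panel has its own axis. Etfa to Etfb with MIZ (-0.68 to -0.44) lies below both other groups, while Hadha to Hadhb with MIZ (0.95 to 1.01) lies between them.

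In all, 8 pairs were compared in 3 ways, giving 24 tests. The groups did not overlap in 22 of them, each with an exact permutation p of 0.1 (0.109 after Benjamini-Hochberg adjustment over the 24), so that none could pass 0.05 with 3 libraries a group. How often the groups separate for other pairs of genes was not computed, so this count does not set these pairs apart. The dehydrogenase pairs with Acads differed most between vehicle and undifferentiated cells: Acadm counts were 1.57, 1.68 and 1.85 times Acads counts in undifferentiated cells, 4.97, 4.28 and 4.06 times with vehicle and 2.08, 2.12 and 1.98 times with MIZ. Acadvl to Acads stood at 1.93, 2.09 and 2.12, then 4.45, 4.6 and 4.61, and 3.63, 3.40 and 3.26 with MIZ, which was nearer to vehicle. Acadl to Acadm went from 1.46, 1.40 and 1.38 to 0.776, 0.863 and 0.872 and was 1.30, 1.22 and 1.26 with MIZ. Acadvl to Acadl was 0.842, 0.887 and 0.831, then 1.15, 1.25 and 1.30, and 1.34, 1.31 and 1.30 with MIZ, just above the vehicle libraries.

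MIZ-treated cells were not at the undifferentiated level for any of the 10 genes. All 10 were called higher with MIZ than in undifferentiated cells, where 33.7% of tested genes were, and in all 10 the libraries did not overlap, as in 37.1% of tested genes. The differences were small beside those with vehicle, and only Acadvl, Etfb and Hadhb, 3 of the 10, passed 2-fold, against 9.88% of tested genes. Acadvl was 2.43-fold higher (log2 fold change 1.28 ± 0.04, adjusted p = 2.07e-09), Etfb 2.24-fold (log2 fold change 1.16 ± 0.05, adjusted p = 1.96e-08) and Hadhb 2.11-fold (log2 fold change 1.07 ± 0.07, adjusted p = 1.52e-07). At the other end stood Etfa at 1.34-fold (log2 fold change 0.42 ± 0.07, adjusted p = 2.73e-04), Etfdh at 1.40-fold (log2 fold change 0.49 ± 0.05, adjusted p = 6.88e-06) and Acads at 1.45-fold (log2 fold change 0.54 ± 0.06, adjusted p = 1.69e-05). The median log2 fold change of the 10 was 0.75, beside -0.0012 over all tested genes. The 3 comparisons share libraries, so their values for a gene are not independent of each other.

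Levels of different genes were compared per kilobase of the principal annotated transcript. In undifferentiated cells Etfb was highest at 38.4 ± 1.67 CPM per kilobase, followed by Acadl at 30.2 ± 0.467 and Etfa at 28.2 ± 1.05, and Acads was lowest at 12.9 ± 0.662 (SD, n = 3), overlapping Etfdh just above it. With vehicle, Acadm had the highest mean, 370.0 ± 55.1 CPM per kilobase, but each of the 8 highest genes, from Acadm down to Hadha at 251 ± 17.9, overlapped its neighbour in the order. Only Etfdh, at 127 ± 5.56, and Acads, at 91.0 ± 3.70, were set apart from them. With MIZ, Etfb at 85.9 ± 4.70 CPM per kilobase again stood clear of the rest, followed without overlap by Acadvl at 55.5 ± 1.28 and Acadl at 47.6 ± 1.47. Hadha, Hadhb, Etfa and Acadm then overlapped in sequence between 35.3 and 40.8 CPM per kilobase, and Etfdh and Acads were lowest at 18.7 and 18.8. The length used matters: with the summed length of all annotated exons, which for Hadha, Hadhb and Etfdh is far above that of the principal transcript, Acadl had the highest vehicle level (314 CPM per kilobase), Acadm came sixth at 194 and Etfdh was lowest at 40.2. By that length Etfb was again clear of the rest with MIZ, whereas in undifferentiated cells its libraries (29.5 ± 1.28 CPM per kilobase) overlapped those of Acadl (28.9 ± 0.446).

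Some members share exon bases with a neighbouring gene, and the strand setting of the counts is not given in the sources used here. Acadvl shares 1151 exon bases with Dvl2 on the opposite strand. Dvl2 moved the other way, measuring 34.6, 32.5 and 33.4 CPM in undifferentiated cells, 13.5, 17.3 and 17.7 CPM with vehicle and 29.7, 29.3 and 27.0 CPM with MIZ, with log2 fold changes of -1.04 ± 0.09 for vehicle against undifferentiated (adjusted p = 9.53e-07) and 0.82 ± 0.09 for MIZ against vehicle (adjusted p = 1.04e-05). Hadha shares 75 with Garem2 and Etfdh 278 with 4930579G24Rik, both at 8.99 CPM or less in every library. Etfb shares 617 with the same-strand gene model Gm45233, which is not among the identifiers of the count tables. Several genes from the companion lists named further on share exon bases with a neighbour in the same annotation. These are Echdc1, Cpt1c, Crat, Dmgdh, Sardh, Acaa1a, Acaa1b, Etfrf1, Flad1, Oxct1 and Bdh1.

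The wider pathway was read from lists of genes for neighbouring steps. Among 18 other enzymes grouped with mitochondrial beta-oxidation, 18 were higher with vehicle than in undifferentiated cells, and with MIZ 17 were lower than with vehicle and 1 was higher, with a median log2 fold change of -1.91. Eci1, an isomerase for unsaturated fatty acids, measured 12.4, 12.3 and 13.9 CPM in the undifferentiated libraries, 210.2, 176 and 175 CPM with vehicle and 24.2, 24.8 and 25.8 CPM with MIZ (MIZ against vehicle, log2 fold change -2.91 ± 0.08, adjusted p = 1.43e-10). Hadh, the short-chain 3-hydroxyacyl-CoA dehydrogenase, measured 38.6, 39.7 and 40.2 CPM in the undifferentiated libraries, 399.9, 384 and 375 CPM with vehicle and 56.4, 58.1 and 63.5 CPM with MIZ (MIZ against vehicle, log2 fold change -2.70 ± 0.05, adjusted p = 2.49e-11). Both followed the pattern of the 10 core genes, with MIZ between the other groups. Not all of the list did: of the 18, 11 were called higher with MIZ than in undifferentiated cells, 3 were lower and 4 were not called. Echdc1, which removes ethylmalonyl-CoA and is not itself a beta-oxidation step, showed the greatest difference of the list with MIZ (log2 fold change -3.71 ± 0.09, adjusted p = 8.97e-11). Acot9, an acyl-CoA thioesterase, was the exception, slightly higher with MIZ than with vehicle (log2 fold change 0.19 ± 0.06, adjusted p = 0.0216).

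RNA levels of the carnitine shuttle list, named for the route by which fatty acids enter the matrix, were split. Neither that entry nor the rate of oxidation was measured in these libraries. Cpt1b, the carnitine palmitoyltransferase 1 of muscle and brown fat, measured 1.59, 1.51 and 1.62 CPM in the undifferentiated libraries, 349, 314 and 299 CPM with vehicle and 7.09, 10.5 and 13.5 CPM with MIZ. It rose with vehicle (log2 fold change 7.67 ± 0.21, adjusted p = 8.65e-11), where the 10 core genes had log2 fold changes of at most 4.21, and was lower with MIZ (log2 fold change -4.97 ± 0.18, adjusted p = 8.90e-10). Cpt1a, the widely expressed form, went the opposite way, at 112, 108 and 102 CPM in the undifferentiated libraries, 44.3, 42.2 and 43.2 CPM with vehicle and 147, 134 and 120 CPM with MIZ. It fell with vehicle (log2 fold change -1.32 ± 0.07, adjusted p = 1.71e-08) and was higher with MIZ than with vehicle (log2 fold change 1.63 ± 0.07, adjusted p = 4.57e-09). Cpt1c, a form best known from neurons, measured 49.4, 48.1 and 47.2 CPM in undifferentiated cells, 6.94, 9.76 and 8.85 CPM with vehicle and 69.4, 66.5 and 63.9 CPM with MIZ (MIZ against vehicle, log2 fold change 2.95 ± 0.10, adjusted p = 4.22e-10). Of the 7 shuttle genes, 5 were lower with MIZ than with vehicle, Crat, the carnitine acetyltransferase, among them (log2 fold change -2.91 ± 0.07, adjusted p = 4.44e-11), and Cpt1a and Cpt1c were the 2 that were higher.

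The list of genes that control beta-oxidation, 16 transcription factors, coactivators and regulators of malonyl-CoA and acetylation, rose in full with vehicle (16 of 16), and 15 were lower with MIZ than with vehicle, with a median log2 fold change of -2.33. Ppara, the nuclear receptor that drives fatty acid oxidation genes in liver and brown fat, measured 0.636, 0.562 and 0.905 CPM in the undifferentiated libraries, 73.4, 74.8 and 68.3 CPM with vehicle and 1.70, 1.52 and 1.92 CPM with MIZ (MIZ against vehicle, log2 fold change -5.40 ± 0.11, adjusted p = 2.93e-11). Acacb, the acetyl-CoA carboxylase whose malonyl-CoA inhibits Cpt1, measured 5.68, 5.10 and 6.23 CPM in the undifferentiated libraries, 533, 477 and 478 CPM with vehicle and 8.99, 11.6 and 15.6 CPM with MIZ (MIZ against vehicle, log2 fold change -5.37 ± 0.17, adjusted p = 3.15e-10). An inhibitor of the pathway and an activator of it thus moved in the same direction. Esrrg, an orphan nuclear receptor active in oxidative tissues, was at 2.89, 3.20 and 2.69 CPM with vehicle and had only 2 to 3 counts in each MIZ library (log2 fold change -5.52 ± 0.33, adjusted p = 5.97e-08).

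Genes for the steps that share the electron transfer flavoprotein, but belong to amino acid and choline breakdown, showed smaller differences in RNA. All 5 tested dehydrogenases of this kind were lower with MIZ than with vehicle, with a median log2 fold change of -0.57. Gcdh, of lysine breakdown, was at 10.2 ± 0.330, 30.2 ± 0.234 and 9.36 ± 0.844 CPM as the mean and SD of the 3 undifferentiated, vehicle and MIZ libraries (MIZ against vehicle, log2 fold change -1.69 ± 0.07, adjusted p = 3.44e-09). Ivd, of leucine breakdown, was at 31.5 ± 0.845, 77.5 ± 5.17 and 24.4 ± 0.205 CPM (MIZ against vehicle, log2 fold change -1.67 ± 0.06, adjusted p = 5.33e-10), and Acad8, of valine breakdown, differed by less (log2 fold change -0.57 ± 0.06, adjusted p = 5.85e-06). Unlike the 10 core genes, Gcdh and Ivd had lower means with MIZ than in undifferentiated cells, and the difference passed the test for Ivd (adjusted p = 1.47e-04) but not for Gcdh (adjusted p = 0.165). Sardh, from the same list, was also lower (log2 fold change -0.77 ± 0.08, adjusted p = 9.63e-06). Of the 5 tested genes, 1 was called higher in that comparison, 2 were lower and 2 were not called. Dmgdh, with 1 count in all, was not tested. Of 6 genes for FAD supply and ETF maturation, 4 were lower with MIZ, among them Etfrf1, a regulator of ETF (log2 fold change -1.82 ± 0.06, adjusted p = 3.05e-10), Etfbkmt, the methyltransferase of the Etfb protein (log2 fold change -1.60 ± 0.13, adjusted p = 6.69e-07), and Flad1, the FAD synthase (log2 fold change -1.58 ± 0.06, adjusted p = 1.13e-09).

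The peroxisomal beta-oxidation list, which handles very long and branched chains, also fell with MIZ relative to vehicle, in 12 of 12 genes with a median log2 fold change of -1.88. Acaa1b, a peroxisomal thiolase, was at 184 ± 3.83 CPM (mean and SD) with vehicle and 4.71 ± 1.12 CPM with MIZ (log2 fold change -5.30 ± 0.13, adjusted p = 7.02e-11); it has a close paralogue, Acaa1a, with which reads may be shared. Acox2, the branched-chain oxidase, was at 5.33, 7.64 and 7.83 CPM with vehicle and had 0 to 2 counts in each MIZ library (adjusted p = 1.65e-08). Among ketone body enzymes, Oxct1, which takes part in their use, was lower with MIZ than with vehicle (log2 fold change -2.13 ± 0.07, adjusted p = 4.57e-10), whereas Bdh1, which interconverts them, was higher (log2 fold change 1.35 ± 0.23, adjusted p = 3.49e-04), at levels of at most 3.02 CPM in the vehicle and MIZ libraries.

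**Figure D4:**
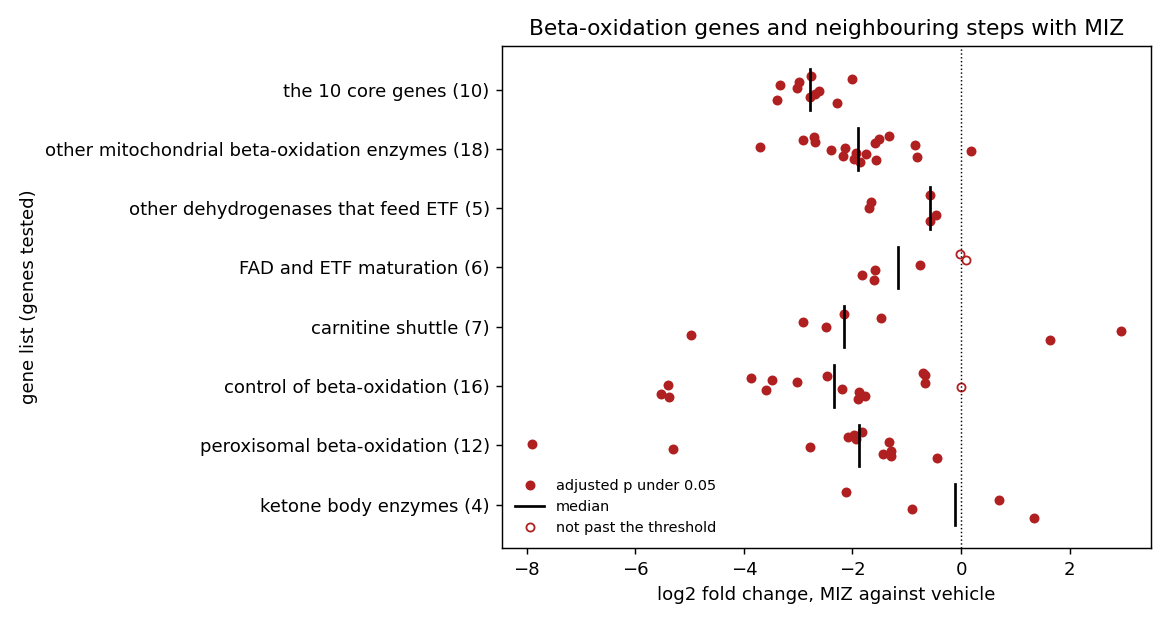
Log2 fold change of each tested gene for MIZ against vehicle, by gene list; filled points passed an adjusted p of 0.05, open points did not, and the black line is the list's median. The 10 core genes span -3.39 to -2.0 with a median of -2.78, and the carnitine shuttle holds 2 genes well above 0, Cpt1a (1.63) and Cpt1c (2.95).

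Many other genes followed the pattern of the 10. Over the 9 libraries, the mean centred log2 level of the 10 members was most like that of Idh3g and Dlst, of the tricarboxylic acid cycle, Ndufv1 and Cox7b, of the respiratory chain, and Decr1, the reductase for unsaturated fatty acids, with Pearson's r between 0.9997 and 0.9998. This is a description, since the libraries fall into 3 groups and share those group differences, and 520 of 11002 other genes with a mean of at least 5 CPM had r above 0.99. Within the 10, each gene was compared with the mean of the other members, and r ran from 0.985 for Etfb to 0.9999 for Hadha.

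The upstream sequences were read for 9 of the 10 genes from RefSeq promoter windows of GRCm38.p6, 250 bases before to 50 after the start, with no window for Acaa2. Acadm and Acads, the genes with the greatest and the smallest fold rise with vehicle, are shown by the 120 bases before their starts, in the direction of transcription, with any of the searched motifs in capitals. Acadm lies at chr3:153944644-153944763 on the minus strand and Acads at chr5:115119347-115119466 on the minus strand.
Acadm: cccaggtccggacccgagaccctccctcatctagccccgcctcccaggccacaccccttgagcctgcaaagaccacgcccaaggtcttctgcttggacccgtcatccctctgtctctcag
Acads: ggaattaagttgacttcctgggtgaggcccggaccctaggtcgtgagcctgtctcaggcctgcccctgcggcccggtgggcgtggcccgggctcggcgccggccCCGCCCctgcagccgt
The Acads segment holds 1 GC box, read on the opposite strand, 16 to 11 bases before the start, and the Acadm segment holds none of the searched letters. On either strand, GGGCGG was present in the windows of 6 of 9 members (Acadl, Etfdh, Hadha, Hadhb, Acads and Etfb) and in 35.7% of 32851 windows, and CCAAT in 3 (Etfdh, Etfb and Etfa) and in 37.4% of windows. Acadl had 4 GC boxes in the 84 bases before its start. AGGTCA, the half-site letters of nuclear receptors, was in the windows of Acadm and Acadvl and in 16.3% of all windows. TNAAGGTCA, the longer letters linked to estrogen-related receptors, which contain AGGTCA, was in 0 of 9 and in 1.28% of windows, CACGTG in 0 and 7.15%, and AGGTCANAGGTCA, a direct repeat of the half-site, in 0 and 0.0396%. These matches describe letters in a short window and do not mark sites of binding.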

How the data were processed

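RNA libraries were made by the authors after depletion of ribosomal RNA, with poly-A selection also named in the methods, and sequenced as paired reads. The submitters' processing notes name Trim Galore 0.6.7, STAR and HTSeq with mm10, whereas the methods name gene counting by STAR; the annotation release and strand setting are not given in the sources used here. Each library was deposited as a table of unnormalized counts by Ensembl identifier. A gene was tested where 3 or more libraries had 5 or more counts (17173 of 32285 identifiers, 99.99% of counts). All 9 libraries were fitted together with edgeR 4.0.16 (R 4.3.3), TMM scaling and the quasi-likelihood test. Benjamini-Hochberg adjustment ran over all genes tested, with a threshold of 0.05. The biological coefficient of variation was 0.0806. The fit was run on simulated counts in which few genes changed, in equal numbers up and down. Such a check does not test the scaling under changes as wide as those seen here. Log2 ratios of counts within a library were compared by two-sided exact permutation tests. Gene positions and lengths came from GENCODE M21 (GRCm38) and upstream sequences from RefSeq. The 10 genes and all companion lists were chosen with earlier results of these data known. All 10 are described; of each list, up to 3 called genes with the largest difference between MIZ and vehicle, and up to 3 against its commoner direction, are named, and the 5 genes most like the members' mean. Some genes that this rule names are not reported here. Alternatives were other scalings and filters, DESeq2 1.42.0, a replicate block, only the libraries compared, leaving out mitochondrially encoded genes, and leaving out each library.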

Additional observations from a re-analysis of the deposited data

How the results depend on the processing

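The direction and the call of the 10 genes did not depend on the settings tried. Over 18 alternative settings, 540 of 540 fold changes of the members kept their direction and stayed past the threshold, with log2 fold changes of 2.64 to 4.30 for vehicle against undifferentiated, -3.48 to -1.87 for MIZ against vehicle and 0.36 to 1.31 for MIZ against undifferentiated. The largest adjusted p was 0.00214, for Etfa in MIZ against undifferentiated without undifferentiated replicate 3 (edgeR). With library size alone in place of TMM, the summed level of the 10 genes in undifferentiated cells was 465.0 CPM against 442 CPM, and the median log2 fold change of all genes moved to -0.25 for vehicle against undifferentiated and to 0.16 for MIZ against vehicle. With 1 library left out or 2 counts added, 168 of 168 differences of log2 ratios moved by less than the spread between libraries. This outcome was fixed in advance and is no evidence that the ratios are robust. Leaving out 1 of 3 libraries cannot move a group mean by that spread, and 2 counts are few beside the counts of these genes. In the companion lists, 123 of 126 counts of called genes stayed within 1.5 times, over only a part of the alternative settings. The other 3 were between 0 and 1 gene: the 1 ETF-feeding dehydrogenase called lower with vehicle than in undifferentiated cells was 0 with DESeq2, and with library size alone 1 gene each of the FAD and ETF maturation list and of the control list, against 0, was called higher with MIZ than with vehicle.

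The replicate numbers gave no sign of pairing: the correlation of same-numbered libraries' deviations from their group means was -0.0447 to 0.0630 over 9 pairs. For differently numbered libraries it was -0.0544 to 0.0681. These correlations cannot show whether same-numbered libraries came from the same animals. With the replicate block, 10 of 10 members were still called in each comparison. Levels per kilobase by summed exon length were added after the data were seen. The depth, with at least 1018 counts for a member in any library, did not limit these comparisons, whereas 3 libraries a group kept the exact tests of ratios at 0.1 or above.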
